A study of Homo sapiens with 20 samples.

Results

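The protocadherin genes were followed through 18 days of neuronal differentiation in culture. A record here is 1 line of the gene catalogue, and a coding record was taken as a member when any of its gene symbols began with PCDH. This gave 34 records among the 38369 of the catalogue, of which 20237 were coding. Of the 34, 19 came from the PCDHA, PCDHB and PCDHG clusters on chromosome 5 and 15 lay elsewhere. All samples came from neural progenitor cells made from the human embryonic stem cell line H1, an established line, and so share 1 genetic background. FGF, which keeps progenitors dividing, was withdrawn and BDNF, a neurotrophic factor, was added. Polyadenylated RNA was sequenced on 7 days, namely day 0, day 1, day 2, day 4, day 5, day 11 and day 18, with 3 cultures a day except day 5, which had 2. Cells for days 5, 11 and 18 had been replated at day 4 onto poly-D-lysine and laminin, so every comparison across day 4 also spans that change of surface, and the 2 cannot be told apart. The levels are FPKM, fragment counts corrected for the length of the transcript and the yield of the library, with 1 value per record and day estimated over the cultures of that day. No spread between cultures was therefore available, and the depth behind a value is unknown. No difference below has a test, and the authors' own tests between adjacent days were not used.

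Protocadherins are cadherin-like membrane proteins, and many of them bind the same protein on a neighbouring cell. In the PCDHA and PCDHG clusters each gene has its own promoter and its own variable exon, which is spliced to constant exons shared along the cluster, while each PCDHB gene is a single exon of its own. A neuron uses a small and partly random choice of these promoters, through loops held by CTCF and cohesin, and the resulting combination of surface proteins lets its branches tell self from non-self. The protocadherins outside the clusters have their own loci, and several act in axon growth and cell sorting, with PCDH19 known as an epilepsy gene. The values here are averages over many cells, so a choice made by single cells cannot be seen in them.

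The records do not separate every gene. Merging of neighbouring symbols in 5 records left 69 protocadherin symbols in 34 records. The PCDHA record joined 15 symbols and 37 transcripts (hg19 chr5:140165876-140391929, plus strand), and the PCDHG record joined 22 symbols and 47 transcripts (hg19 chr5:140710252-140892546, plus strand). For those clusters only the total can be given. The other merged records were PCDHB2 with PCDHB3, PCDHB16 with ME1, and PCDHB12 with PCDHB11. By the GENCODE annotation of the same build they lie on PCDHB2, PCDHB16 and PCDHB12, and they are called by those names below. Of the 32 records outside PCDHA and PCDHG, 28 had their largest same-strand exon overlap with a GENCODE gene of their own symbol. The exceptions were PCDH21 and PCDH24, now CDHR1 and CDHR2, PCDH20, whose gene of largest overlap carries no symbol there, and PCDHB17. The PCDHB17 record overlapped 2 GENCODE genes, and the gene taken for it is noncoding and carries no symbol.

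Most promoters of the clustered genes carry a conserved element with the core CGCT. Promoter sequences are shown here because PCDHB genes that follow differed widely in level beside almost the same element. The windows are those of RefSeq (GRCh38.p14), from 250 bases before to 50 bases after each annotated start, and 58 of the 69 symbols had one. CGCT, searched on both strands, stood in 12 of 13 PCDHA genes, 14 of 14 PCDHB genes, 20 of 20 PCDHG genes, 10 of 11 other protocadherins and 70.0% of all 35116 windows. CCCTC, a core of the CTCF motif searched in the same way, stood in 3 of 13 PCDHA genes, 0 of 14 PCDHB genes, 11 of 20 PCDHG genes, 10 of 11 others and 71.2% of all windows. Only these letters were searched and not the full motifs, so the counts do not show which promoters hold or lack the conserved element or a CTCF site. The 10-letter word shared by most PCDHB genes was GGTGGCGCTG, found in 12 of 14 and in 0.276% of all windows. Those of PCDHA and PCDHG were TGATGTCGCT, in 8 of 13 genes and 0.0342% of all windows, and GCGCCGCTGT, in 9 of 20 genes and 0.131% of all windows. All 3 words contain CGCT, and none of them occurred in the promoter of another protocadherin class. The words were picked for being shared, so these shares are descriptions.

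The element is printed below in 30 bases on the plus strand with the shared word in capitals. The first 3 PCDHB genes had the highest mean FPKM among those with the word, and the next 3 had the lowest.
PCDHB2, chr5:141094545-141094574: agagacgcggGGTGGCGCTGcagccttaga
PCDHB5, chr5:141135180-141135209: taggacgcctGGTGGCGCTGcaggctaaga
PCDHB15, chr5:141245315-141245344: gacaacgcatGGTGGCGCTGcaggctaagg
PCDHB13, chr5:141213866-141213895: gaggacgcgtGGTGGCGCTGcaggataaga
PCDHB8, chr5:141177778-141177807: gaggacccgtGGTGGCGCTGcaggataaga
PCDHB3, chr5:141100394-141100423: gcgaacgcatGGTGGCGCTGttgactaaga
The PCDHA and PCDHG genes shown are the first 3 of each cluster, along the chromosome, that have the word of their own cluster.
PCDHA1, chr5:140786086-140786115: attggccacaTGATGTCGCTgtacaccaca
PCDHA2, chr5:140794781-140794810: tttagccacaTGATGTCGCTgtccaccata
PCDHA4, chr5:140806979-140807008: tggagccacaTGATGTCGCTctttaccaca
PCDHGA1, chr5:141330405-141330434: aggactgtggGCGCCGCTGTtcactaatct
PCDHGB1, chr5:141350027-141350056: caacctctggGCGCCGCTGTcgaccaaaag
PCDHGA7, chr5:141382651-141382680: aggactcacaGCGCCGCTGTtcaccaacca
These coordinates are GRCh38.p14, and those of the measured records below are hg19.

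Most protocadherin levels at day 18 were close to or above those at day 0, in a catalogue where most levels were below. Of the 34 records, 18 had a mean FPKM of at least 1 over the 7 days, and 14 of those 18 were higher at day 18 than at day 0, with a median difference of 0.29 in log2(FPKM + 0.1). Among the 11793 coding records with such a mean, 23.9% were higher and the median difference was -0.60. The summed FPKM of all records was 413978 at day 0 and 251156 at day 18. The median over all 14443 coding and noncoding records with a mean of at least 1 was -0.56, and values given as relative to the median have that shift taken out. On that scale 16 of the 18 were higher and their median was 0.85, against 48.0% of the coding records. PCDH8 and PCDH17 were the records whose sign depended on the scale.

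At least 2-fold higher at day 18 were 4 of the 18, namely PCDH10, PCDH11X, PCDHB9 and PCDHB10, where 7.57% of the coding records were. At least 2-fold lower was PCDH18 alone, 1 of 18, where 29.9% of the coding records were. Relative to the median, 8 of 18 were at least 2-fold higher (13.9% of the coding records) and 0 were at least 2-fold lower (12.8%). The added 4 were the PCDHA record, PCDH9, PCDHB14 and PCDHB15. With no replicate values, none of these counts can be set against the spread between cultures.

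**Figure D1:**
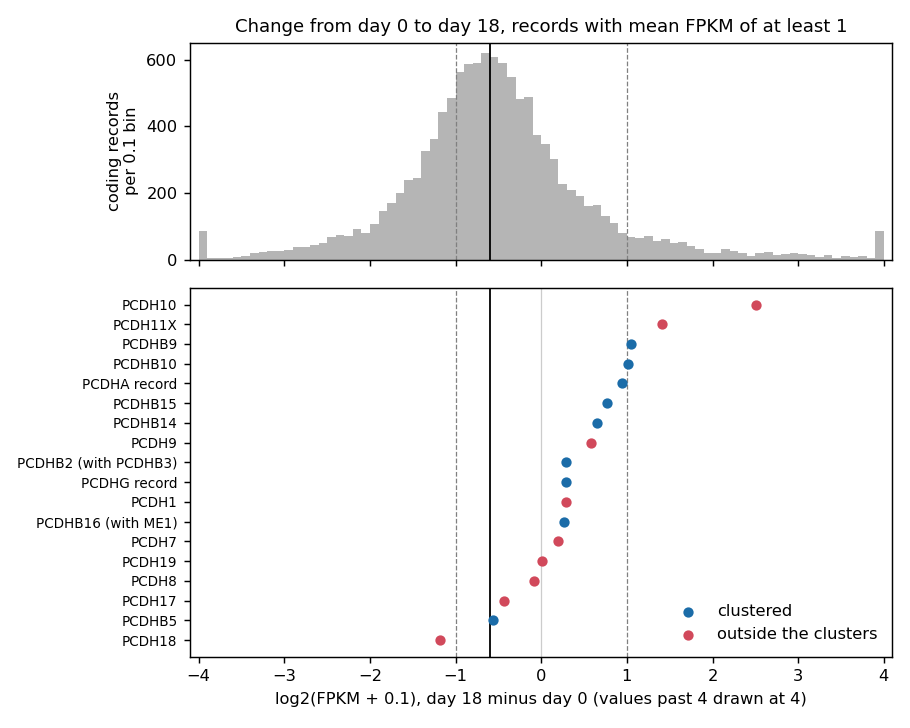
Change in log2(FPKM + 0.1) from day 0 to day 18. Top, number of coding records averaging at least 1 FPKM in bins of 0.1; bottom, 1 point for each of the 18 protocadherin records with such a mean, blue for clustered genes and red for the others. The solid line marks the coding median of -0.60 and the dashed lines 2-fold, and PCDH18 alone lies to the left of the solid line.

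The step from one sampled day to the next seldom reached 2-fold. From day 0 to day 1, 1 of 18 did (PCDH7, lower), beside 6.69% of the coding records. From day 11 to day 18, 2 of 18 did (PCDH10, higher, and PCDH18, lower), beside 4.56%. None of the 18 did from day 1 to day 2 (0.28% of the coding records), day 2 to day 4 (0.78%), day 4 to day 5 (0.305%) or day 5 to day 11 (6.04%).

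The PCDHA record joins the genes whose variable exons share the alpha constant exons. Its FPKM ran 18.8, 26.3, 31.1, 28.9, 29.7, 36.1 and 36.1 over the 7 days from day 0 to day 18. Day 0 was the lowest value and the last 2 days were the highest. Day 18 was 1.92-fold day 0, a difference of 0.94 in log2(FPKM + 0.1) and 1.5 relative to the median, and 92.0% of the coding records had a lower difference. The antisense record linc-PCDHA1-AS covered 23.1% of its exon bases, at a mean of 1.13 FPKM.

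The PCDHG record, which joins the gamma genes, was the most abundant protocadherin record on every day. Its FPKM was 67.4, 72.7, 68.5, 59.6, 68.4, 79.6 and 82.4 on the 7 days. The lowest day was day 4 and the highest day 18, and the highest was 1.38-fold the lowest. Day 18 was 1.22-fold day 0 (0.29 in log2, 0.85 relative to the median). The ratio of the PCDHG to the PCDHA record was 3.59 at day 0 and between 2.06 and 2.76 on all later days.

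The 17 PCDHB records summed to 52.8, 54.1, 58.1, 60.7, 72.0, 78.3 and 59.8 FPKM over the 7 days in turn. The sum was highest at day 11, and at day 18 it was 1.13-fold day 0 (0.18 in log2, 0.74 relative to the median). Of the summed FPKM of all protocadherin records, PCDHA held 7.69% at day 0 and 12.7% at day 18, PCDHB 21.6% and 21.1%, PCDHG 27.6% and 29.1%, and the genes outside the clusters 43.1% and 37.0%. PCDHA was thus the class whose share differed most upward between the first and the last day.

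**Figure D2:**
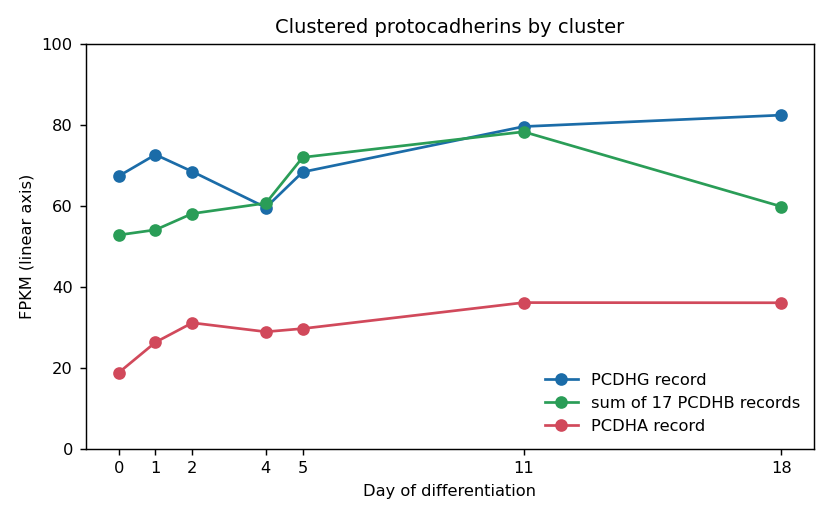
FPKM of the PCDHG record, of the 17 PCDHB records summed and of the PCDHA record on each of the 7 days, on a linear axis from 0, with 1 value per day pooled over cultures and no error bars. The PCDHA record goes from 18.8 at day 0 to 36.1 at day 18, and the PCDHB sum is highest at day 11 (78.3).

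Along the PCDHB cluster (hg19 chr5:140430979-140627799, 196821 bases, every record a single exon), levels differed by more than 2 orders of magnitude between some neighbouring genes. Between days, the 7 records with a mean of at least 1 FPKM differed by at most 2.65-fold, the value of PCDHB9. Of the 17 records, 6 were at 1 FPKM or more on every day, 9 were under 1 on every day and 2 were on both sides. In chromosomal order, the means over the 7 days were 0.0331 for PCDHB1, 18.4 for PCDHB2, 0 for PCDHB3, 0.270 for PCDHB4, 15.7 for PCDHB5, 0.000930 for PCDHB6, 0.00420 for PCDHB17, 0.0583 for PCDHB7 and 0.0122 for PCDHB8. They went on with 6.21 for PCDHB16, 1.28 for PCDHB9, 3.20 for PCDHB10, 0.725 for PCDHB11, 0.859 for PCDHB12, 0.0549 for PCDHB13, 3.49 for PCDHB14 and 12.0 for PCDHB15. PCDHB2 and PCDHB5 thus each lay between records under 0.5 FPKM, while PCDHB14 and PCDHB15, both expressed, were neighbours at the far end. The order of the 17 records was almost the same on any 2 days, with Spearman's rho between 0.891 and 0.991 over the 21 pairs of days and at least 4 of the 5 highest records shared, a description of records that share their libraries, lengths and annotation.

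**Figure D3:**
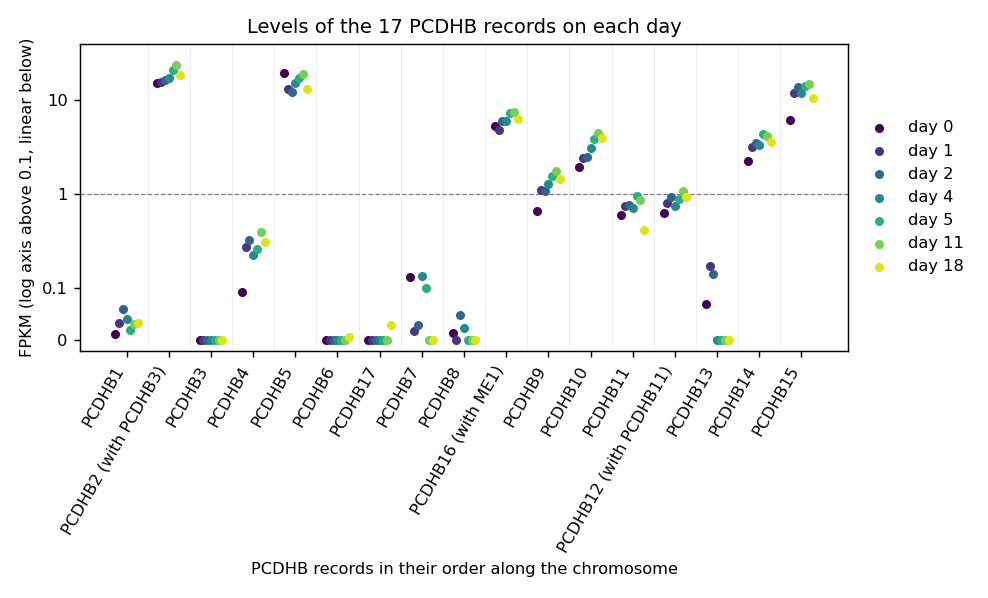
FPKM of the 17 PCDHB records in chromosomal order, with 1 point per day from day 0 (dark) to day 18 (yellow), on an axis that is logarithmic above 0.1 and linear below, and a dashed line at 1 FPKM. PCDHB2, PCDHB5 and PCDHB15 are at or above 10 FPKM on most days, the first a neighbour of records near 0, and the 7 days of a record lie close together compared with the distance between records.

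The shared promoter word, picked for being in nearly all PCDHB genes, could not divide them by level. It stood in 6 of 7 promoters of records with a mean of at least 1 FPKM and in 6 of 7 promoters of records under 1, starting between 2 and 84 bases before the annotated start. PCDHB14, at a mean of 3.49 FPKM, and PCDHB1, at 0.0331, were the genes without it. The full 250 bases before the start are printed, with the word in capitals, for the PCDHB genes with the highest and the lowest listed mean. The listed 0 of PCDHB3 is uncertain, since a transcript of that name is also part of the PCDHB2 record.
PCDHB2, chr5:141094365-141094614, plus strand: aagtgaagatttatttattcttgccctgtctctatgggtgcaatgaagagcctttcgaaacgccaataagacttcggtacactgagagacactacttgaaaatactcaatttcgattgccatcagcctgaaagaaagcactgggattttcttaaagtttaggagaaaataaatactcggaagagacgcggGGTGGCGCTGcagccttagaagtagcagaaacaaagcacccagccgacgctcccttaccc
PCDHB3, chr5:141100223-141100472, plus strand: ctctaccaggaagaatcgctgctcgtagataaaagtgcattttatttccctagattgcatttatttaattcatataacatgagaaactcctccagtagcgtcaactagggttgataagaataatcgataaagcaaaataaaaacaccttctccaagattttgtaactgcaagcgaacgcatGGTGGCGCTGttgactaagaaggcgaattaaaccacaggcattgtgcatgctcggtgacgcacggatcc
CGCT occurred 2 times in the PCDHB2 stretch and 4 times in that of PCDHB3, both strands counted, and G and C made up 44.8% and 41.2% of the bases.

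Among the PCDHB genes with higher levels, PCDHB2 had 15.4, 15.6, 16.4, 17.5, 21.0, 23.8 and 18.9 FPKM on the 7 days. PCDHB15 had 6.26, 11.9, 14.0, 12.0, 14.2, 15.0 and 10.7 FPKM on the same days. PCDHB5 had 19.4, 13.1, 12.4, 15.4, 17.2, 19.2 and 13.1 FPKM. PCDHB2 and PCDHB15 were lowest at day 0 and highest at day 11, while PCDHB5 was highest at day 0 and almost as high at day 11. Day 18 was 1.23-fold day 0 for PCDHB2 (0.29 in log2, 0.85 relative to the median) and 1.71-fold for PCDHB15 (0.77, 1.32 relative). For PCDHB5 it was 0.673-fold (-0.57, -0.01 relative), the only lower value among the 9 clustered records with a mean of at least 1. The ratio of PCDHB5 to PCDHB15 was 3.10 at day 0 and between 0.882 and 1.29 on all later days.

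The PCDHB genes with lower levels had a like course over time. PCDHB16 had 5.31, 4.84, 6.01, 6.08, 7.42, 7.47 and 6.39 FPKM over the 7 days. PCDHB14 had 2.24, 3.18, 3.48, 3.39, 4.42, 4.15 and 3.58 FPKM. PCDHB10 had 1.93, 2.41, 2.51, 3.15, 3.89, 4.53 and 3.99 FPKM. Each was highest at day 5 or day 11 and lower again at day 18. PCDHB9 had 0.662, 1.10, 1.09, 1.29, 1.58, 1.75 and 1.47 FPKM, with its highest value also at day 11. Day 18 was 2.22-fold day 0 for PCDHB9 (1.04 in log2) and 2.07-fold for PCDHB10 (1.01), both just past the 2-fold limit, 1.60-fold for PCDHB14 (0.65) and 1.20-fold for PCDHB16 (0.26). Relative to the median these were 1.60, 1.57, 1.21 and 0.82 in log2.

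The other 10 PCDHB records had means under 1 FPKM and ranged from 0 to 1.08 over all days. PCDHB12, with a mean of 0.859, was the record just below that limit, and PCDHB11 followed with 0.725. PCDHB4 reached at most 0.399 FPKM. PCDHB1, PCDHB3, PCDHB6, PCDHB8 and PCDHB17 were under 0.1 on every day, while PCDHB7 and PCDHB13 reached at most 0.133 and 0.174. PCDHB3 was listed at 0 on all 7 days. Besides the shared symbol, 8.62% of the 100-base exon stretches of PCDHB3 occurred in another protocadherin record, most often that of PCDHB2. The antisense record linc-PCDHB2-AS, described below, covered 100% of its exon bases. How reads were assigned among these records was not tested, so the listed 0 remains uncertain.

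The clustered records mostly shared their direction between day 4 and day 11. All 9 clustered records with a mean of at least 1 were higher at day 5 than at day 4, where 32.0% of the coding records were higher, by between 0.04 and 0.37 in log2. From day 5 to day 11, 8 of 9 were higher, where 28.7% of the coding records were. From day 11 to day 18, 8 of 9 were lower, close to the 9603 of 11793 coding records that were, and the PCDHA record among them was at 36.1 FPKM on both days. The highest day was day 11 in 6 of 9, where it was in 8.60% of the coding records, and day 0 in 1 of 9, where it was in 44.8%. The 9 records lie along 1 stretch of chromosome 5, and the 7 of PCDHB share an antisense record and some sequence, so they are not independent.

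The single values carry an uncertainty of counting. The exons of linc-PCDHB2-AS, a noncoding record on the minus strand (hg19 chr5:140442075-140642487, longest exon 53854 bases), covered 100% of the exon bases of all 16 PCDHB records other than PCDHB1. Its FPKM averaged 6.21 and was 3.78 on the first and 8.24 on the last day. The authors' methods state default options and name no setting for strand. Without counting by strand, reads of a PCDHB gene and of this record cannot be told apart, so neither level is known by strand. The PCDHB genes are also alike in sequence. Of the 100-base stretches of their exons, about the length of a read, between 2.52% and 26.5% occurred letter for letter in another protocadherin record, for all PCDHB records but PCDHB1, which had none. The highest shares were those of PCDHB8 (26.5%), PCDHB13 (21.5%), PCDHB10 (17.9%) and PCDHB2 (17.4%). Whether such reads were split between genes was not tested.

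Outside the clusters, PCDH10 differed most over the 18 days. PCDH10 is a protocadherin of the delta group that binds the WAVE complex, a regulator of actin, and acts in axon growth. Its FPKM (hg19 chr4:134070470-134112731, plus strand) was 3.26, 1.81, 2.14, 3.58, 4.54, 7.75 and 19.0 on the 7 days. The lowest level was at day 1, and every later sampled day was above the one before. Day 18 was 5.83-fold day 0, 2.51 in log2 and 3.07 relative to the median, and 97.7% of the coding records had a lower difference. The antisense record linc-PCDH10-AS covered 70.2% of its exon bases, and its FPKM was 0.361 at day 0 and 1.31 at day 18.

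PCDH9 and PCDH7, both long genes of the delta group, shared the low point after day 0. PCDH9 (hg19 chr13:66876967-67804468, minus strand) had 8.43, 4.29, 5.03, 7.58, 7.67, 9.78 and 12.7 FPKM on the 7 days. PCDH7 (hg19 chr4:30722037-31148421, plus strand) had 7.07, 3.47, 2.95, 3.62, 3.74, 5.39 and 8.09 FPKM. Both were highest at day 18 and lowest at day 1 or day 2. Day 18 was 1.5-fold day 0 for PCDH9 (0.58 in log2, 1.14 relative to the median) and 1.14-fold for PCDH7 (0.19, 0.75 relative). From day 0 to day 1 PCDH7 differed by -1.01 in log2, just past the 2-fold limit.

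PCDH11X, another delta protocadherin, was the record with the lowest mean (1.17 FPKM) above the limit of 1. It had 0.651, 0.785, 0.970, 1.02, 0.926, 1.93 and 1.90 FPKM on the 7 days (hg19 chrX:91034304-91878226, plus strand), with the last 2 days above all others. Day 18 was 2.92-fold day 0 (1.41 in log2, 1.97 relative to the median). Of its 100-base exon stretches, 35.3% also occurred in the record of its paralog PCDH11Y, so reads can be assigned to either. PCDH1, which is made by epithelial as well as neural cells, had 5.61, 7.14, 8.86, 7.10, 7.68, 5.11 and 6.87 FPKM (hg19 chr5:141232683-141257944, minus strand). Its day 18 was 1.22-fold day 0 (0.29, 0.84 relative), and its highest value was at day 2.

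PCDH18 and PCDH8 were the most abundant of these genes on most days. PCDH18 (hg19 chr4:138440076-138453648, minus strand) had 31.1, 31.2, 27.9, 33.5, 32.1, 37.0 and 13.6 FPKM. It stayed between 27.9 and 37.0 until day 11 and was lowest at day 18, with a difference of -1.43 in log2 from day 11 to day 18. Day 18 was 0.439-fold day 0 (-1.18 in log2), at least 2-fold lower, alone among the 18 records with a mean of at least 1. Relative to the median the difference was -0.62, short of 2-fold, and 22.7% of the coding records had a lower difference. PCDH8, an activity-regulated synaptic protocadherin, had 20.7, 35.5, 29.9, 33.5, 38.8, 31.2 and 19.6 FPKM (hg19 chr13:53418111-53422774, minus strand). Its first and last days were the lowest and differed by -0.08 in log2 (0.47 relative to the median), while day 5 was highest. The 250 bases before its start are shown as the promoter of the gene outside the clusters with the highest mean, and they hold CGCT 0 times on either strand.
PCDH8, chr13:52848641-52848890 (GRCh38.p14), minus strand: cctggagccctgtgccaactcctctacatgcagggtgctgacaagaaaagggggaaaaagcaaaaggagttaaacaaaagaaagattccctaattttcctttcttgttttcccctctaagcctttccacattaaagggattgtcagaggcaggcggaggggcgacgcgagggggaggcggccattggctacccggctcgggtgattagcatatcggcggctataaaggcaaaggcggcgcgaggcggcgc

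PCDH17 and PCDH19, delta protocadherins that bind the WAVE complex like PCDH10, had the narrowest ranges over the 7 days among these genes. PCDH17 (hg19 chr13:58205789-58303065, plus strand) had 15.6, 15.2, 15.1, 18.1, 15.0, 14.5 and 11.5 FPKM, and its highest value was 1.57-fold its lowest. PCDH19 (hg19 chrX:99546650-99665271, minus strand) had 9.46, 11.0, 11.1, 10.4, 9.69, 15.5 and 9.47 FPKM, level at both ends with a high value at day 11. Day 18 minus day 0 was -0.44 in log2 for PCDH17 (0.12 relative to the median) and 0.00 for PCDH19 (0.56 relative). linc-PCDH17-AS covered 41.1% of the exon bases of PCDH17, at a mean of 8.72 FPKM against 15.0 for PCDH17 itself, so that value is among the less certain. In all, 26 of the 34 records overlapped exons of a record on the other strand, 15 of them among the 18 with a mean of at least 1.

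**Figure D4:**
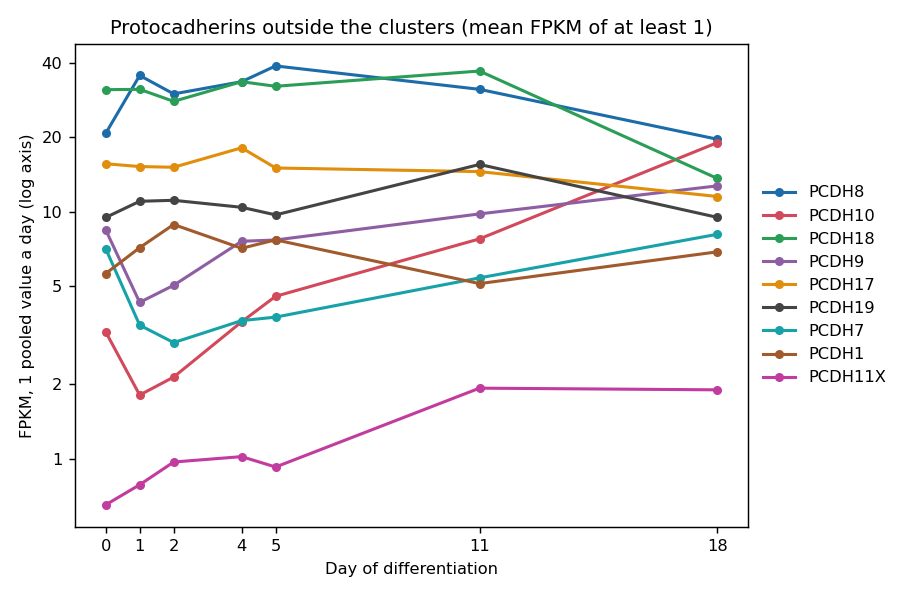
FPKM of the 9 protocadherins outside the clusters with a mean of at least 1, on a logarithmic axis against the day of differentiation, with 1 pooled value a day and no error bars. PCDH10 runs from 1.81 at day 1 to 19.0 at day 18, and PCDH18 from 37.0 at day 11 to 13.6 at day 18.

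The sum over the 15 records outside the clusters was 105 FPKM on the first and on the last day and highest at day 11 (130), with PCDH10 higher and PCDH18 lower inside it. The remaining 6 of them, PCDH12, PCDH15, PCDH20, PCDH21, PCDH24 and PCDH11Y, had means under 1 and ranged from 0.0401 to 1.49 FPKM. PCDH12 is known from endothelial cells, PCDH15 from the tip links of hair cells, PCDH21 from photoreceptors and PCDH24 from the brush border of epithelia. PCDH20 was highest at day 0 (1.49 FPKM) and lowest at day 18 (0.423), and PCDH21 likewise (1.01 and 0.305). PCDH15 had 0.530 FPKM at day 0 and 0.505 at day 18, PCDH12 had 0.254 and 0.167, and PCDH24 had 0.0559 and 0.142.

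The factors that fold and silence the clusters all had a mean of at least 1 FPKM. Of 18 such genes, 0 were at least 2-fold higher and 7 lower, where 7.57% and 29.9% of the coding records were. Relative to the median 0 were higher and 1 was lower, where 13.9% and 12.8% of the coding records were, and the median difference was -0.88 in log2 (-0.32 relative). NIPBL, which loads cohesin, differed by -0.23. The lowest differences were those of DNMT1 (-1.75), the maintenance DNA methyltransferase, and DNMT3B (-1.53), a de novo one. CTCF had 33.5 FPKM at day 0 and 19.2 at day 18, -0.80 in log2 and -0.24 relative to the median.

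Of 20 partners and effectors inside the cell, 0 were at least 2-fold higher and 7 lower, beside the same 7.57% and 29.9% of the coding records. Relative to the median 1 was higher and 2 were lower, beside 13.9% and 12.8%. The median difference was -0.42 (0.14 relative). PTK2B, a kinase bound by clustered protocadherins, differed by 0.67 and CYFIP2, a WAVE complex subunit made in neurons, by 0.16, the highest 2. CYFIP1, its paralog, at -1.80 and the phosphatase subunit PPP1CA at -1.77 were the lowest. The paralogs CYFIP1 and CYFIP2 were thus at opposite ends of the list, with 47.3 and 32.5 FPKM at day 0 and 13.5 and 36.2 at day 18. Of 7 genes for ADAM10 and gamma-secretase, the proteases that cleave protocadherins, 0 were 2-fold different in either direction on either scale, a count too small to read against those shares. PSENEN, a merged record, differed by -0.43, and the lowest differences were those of ADAM10 (-0.98) and APH1A (-0.88).

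The classical cadherins are the related adhesion family. Of 19, 9 had a mean of at least 1 FPKM, with a median difference of -0.14 (0.42 relative to the median), 1 at least 2-fold higher and 1 lower (2 and 1 relative), beside the same background shares. CDH8 was highest (2.24 in log2, from 4.52 to 21.8 FPKM) and CDH10 next (0.86), both type II cadherins of neurons. CDH6 (-2.88, from 59.6 to 8.01 FPKM) and CDH24 (-0.53) were lowest.

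Markers of the labelled progenitors were present throughout, and markers of several cell types differed between the first and the last day. Markers of neurons summed to 343 FPKM at day 0 and 1272 at day 18. Of these, 7 of 8 were at least 2-fold higher, where 7.57% of the coding records were. GAP43 was the exception, with 193 FPKM at day 0 and 173 at day 18. Markers of dividing cells summed to 440 and 79.1, with 5 of 5 at least 2-fold lower, where 29.9% of the coding records were. Relative to the median both counts were the same, beside 13.9% higher and 12.8% lower. Neural progenitor markers summed to 898 and 558 FPKM and did not share a direction. Of 6, 1 was at least 2-fold higher (PAX6) and 1 lower (NES), beside 7.57% and 29.9% of the coding records. Their median difference was -0.40 in log2 and 0.16 relative to the median. Mesenchymal markers summed to 291 and 37.0, with COL1A1 listed at 0 on every day, and endothelial markers to 28.7 and 0.837. Glial markers lay between 5.02 and 21.9, with GFAP, AQP4, OLIG1 and OLIG2 under 1 on every day, and of the pluripotency genes POU5F1 and NANOG were under 1 throughout, while DPPA4 had 9.72 FPKM at day 0 and 2.25 at day 18. In such bulk samples, fewer cells of a type and less RNA per cell cannot be told apart. The part of these shifts in the protocadherin values was not tested.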

How the data were processed

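Polyadenylated RNA of 20 cultures on 7 days was sequenced as paired-end reads, with no statement on strand. The authors' methods state alignment to hg19 with TopHat2 and FPKM estimates from Cufflinks and Cuffdiff2 at default options, with program versions not given in the sources used here. The deposited FPKM values hold 1 estimate per record and day over all cultures, and 0 columns of single samples, so depth and replicate error are unknown. The authors' table also holds fold changes, test statistics and p-values between adjacent days, which were not used. Groups came from the sample titles.

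Changes were differences in log2(FPKM + 0.1), so that folds of low genes are understated. Records averaging at least 1 FPKM over the 7 days were counted at 2-fold, beside all coding records treated alike. Every protocadherin record past that mean is named with its daily values. Members, gene lists and limits were chosen with earlier results of these data known. For the lists, the 2 highest and 2 lowest differences are named, except for some genes not reported here, and CTCF, the values of records with a mean under 1, the daily values of CYFIP1 and CYFIP2 and the ratios between records were picked after their values were seen. Promoters are RefSeq windows (GRCh38.p14), of which 56 of 58 occur letter for letter in GRCh37. Shared stretches and overlaps were computed on GRCh37 with GENCODE v44 (lifted). Only the calculation of changes and the fold limit were checked on simulated data with known changes (Python 3.11.15, pandas 2.3.3, numpy 2.4.6). That check did not cover the overlaps, shared stretches or promoters. Other pseudocounts, filters, folds and end points were tried.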

Additional observations from a re-analysis of the deposited data

How the results depend on the processing

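The count of records at least 2-fold higher at day 18 (4) was 8 relative to the median, 1 with a pseudocount of 1, 7 at 1.5-fold, 1 at 4-fold and 2 against day 4, and 6 with a mean of at least 0.1, 6 with no filter and 5 at day 11. That of lower records (1) was 0 relative to the median, 3 with a mean of at least 0.1, 4 with no filter, 0 at 4-fold and 0 at day 11. From day 0 to day 1 the count (1) was 0 with a pseudocount of 1, 2 with a mean of at least 0.1 and 6 at 1.5-fold. At 1.5-fold, the step between days 2 and 4 had 1 (0 before), that between days 5 and 11 had 3 (0, and 1 relative to the median) and the last step had 4 (2). Relative to the median, the class sums were 1.5 for PCDHA, 0.74 for PCDHB, 0.85 for PCDHG and 0.55 for the others, the last against -0.01 as deposited. No sign among the 18 records changed with the pseudocount. Genes near 2-fold or near 1 FPKM therefore depend on the limits chosen. With the looser filters the counts are no longer out of 18. Shares of the coding records under the other pseudocounts, filters, folds and end points are not given, so those counts have no background beside them. No paired analysis was possible because the files hold 1 value per day over all cultures, and leaving out each culture in turn was not run for the same reason.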
